A study of Mus musculus with 12 samples.

Results

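The genes described here carry glucose to carbon dioxide in the mouse heart: glucose uptake, glycolysis, lactate dehydrogenase, glycogen, pyruvate entry into mitochondria and the tricarboxylic acid (TCA) cycle. They were taken by name, as every row of the count tables whose transcript name, without its final hyphen and number, was on a list of 38 symbols. All 38 genes were found, as 39 of the 21669 transcript names (38 of 21645 genes, counted by symbol), since the symbol *Aldoa* had 2 names. The annotation used here lists these 2 names under different gene identifiers, at positions that do not overlap. The list rested on gene function and not on measured values, though it was chosen with earlier results of these data known.

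Left ventricle of adult mice was studied by ribosome profiling and by RNA sequencing, in animals that were wild type (WT) or lacked *Rpl3l* (Rpl3l-/-, here KO), with 3 biological replicates for each genotype and assay and 12 libraries in all. *Rpl3l* encodes a form of ribosomal protein L3 restricted to heart and skeletal muscle, and the labels give neither the construction of the allele nor the sex or exact age of the animals. Tissue was lysed with cycloheximide, which holds ribosomes on mRNA. RNase I digestion of the lysate gave ribosome-protected fragments (RPF, or footprints), and undigested lysate gave polyadenylated RNA.

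Glycolysis splits glucose into pyruvate in the cytosol and yields ATP without oxygen. Pyruvate is either reduced to lactate or carried into mitochondria, where the pyruvate dehydrogenase complex turns it into acetyl-CoA for the TCA cycle, whose dehydrogenases feed the respiratory chain. The adult heart draws most of its energy from fatty acids and makes less, but flexible, use of glucose and lactate, and for many of the steps it expresses a muscle or heart form beside a form found in most tissues.

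Library totals ranged from 3827862 to 7474602 counts in RPF and from 6635242 to 8459004 in RNA. Mitochondrially encoded transcripts took 49.8% to 58.2% of RNA counts and 2.28% to 5.22% of RPF counts. The targeted gene followed the labels: *Rpl3l* had 2987, 2726 and 3329 RNA counts in WT and 276, 310 and 442 in KO, and 937, 985 and 1108 RPF counts in WT and 65, 30 and 61 in KO. All 8 cardiomyocyte markers examined were detected in RNA. In whole tissue, fewer cells of a type and less RNA per cell cannot be told apart. Levels below are in scaled CPM, counts brought to a common library size with the TMM factors of the fit of all 12 libraries, and levels compared between genes are scaled CPM per kilobase of coding sequence.

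For several steps the list holds both forms of an enzyme, and these forms can be nearly alike in sequence. A footprint is about as long as the 28-base windows below, which are the closest matches between the coding sequences of 4 pairs (GENCODE M21 transcripts, GRCm38), with capitals at the bases that differ. They are shown because the split of reads between the forms rests on such bases.
Slc2a4: tggGctctctccgtggccatcttctctg
Slc2a1: tggTctctctccgtggccatcttctctg
Eno3: gccatcctgggTgtgtccctggctgtct
Eno1: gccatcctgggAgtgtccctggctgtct
Pgam2: aggccatcatggagctgaacctgcccac
Pgam1: aggccatcatggagctgaacctgcccac
Sucla2: cagGtTttGgctggCggCagaggaaaag
Suclg2: cagAtCttAgctggAggAagaggaaaag

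Such near-matches were few along the coding sequences. *Pgam2* and *Pgam1* shared 1 identical window, and 18 of the 735 windows of *Pgam2* lay within 2 mismatches of a *Pgam1* window. The corresponding counts were 39 of 1503 for *Slc2a4* and *Slc2a1*, 57 of 1278 for *Eno3* and *Eno1*, 77 of 2727 for *Hk2* and *Hk1*, 10 of 978 for *Ldhb* and *Ldha*, and 0 of 1365 for *Sucla2* and *Suclg2*, whose closest windows differ at 5 bases. More of the sequence is shared with pseudogenes and gene copies. All windows of *Gapdh*, *Pgk1* and *Pgam1* also occur in another annotated gene, and the shares were 90.8% for *Mpc1*, 90.5% for *Eno1*, 83.1% for *Pkm* and 74.0% for *Suclg2*. Shares of 67.4% for *Ldha*, 62.4% for *Pdhb*, 57.8% for *Ldhb*, 53.8% for *Aldoa* and 53.5% for *Gpi1* followed. *Tpi1* had 37.0% and *Cs* 20.8%, and the other genes had less. How reads with several matches were counted is not given in the sources used here, so the levels of these genes are uncertain. The count tables list some of these copies, and they held few counts: *Eno1b*, which shares 87.9% of the windows of *Eno1*, had 25 RNA counts over 6 libraries beside 1135 for *Eno1*.

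Footprints on the 38 genes made up a steady share of all footprints. In RPF the genes took 5.25%, 5.31% and 5.38% of nuclear-encoded counts in WT and 5.24%, 5.27% and 5.27% in KO. In RNA they took 2.995%, 2.93% and 3.59% in WT and 3.40%, 2.73% and 3.44% in KO. The genotypes overlapped in both assays, the RPF shares lay within 1.03-fold of each other, and the RNA shares spread over 1.32-fold.

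The most heavily translated genes per kilobase were *Mdh1* and *Mdh2*, the cytosolic and mitochondrial malate dehydrogenases of the malate-aspartate shuttle, *Ldhb*, the heart form of lactate dehydrogenase, and *Aldoa* and *Eno3*, the muscle aldolase and enolase. Averaged over 6 libraries their footprint levels were 2451 scaled CPM per kilobase for *Mdh1* (2217 to 2615), 1889 for *Ldhb* (1768 to 1966), 1729 for *Aldoa* (1608 to 1878), 1685 for *Mdh2* (1542 to 1766) and 1185 for *Eno3* (1092 to 1327). The ranges of *Ldhb*, *Aldoa* and *Mdh2* overlapped, so their order is not resolved, while *Mdh1* lay above and *Eno3* below those 3 in every library. At the other end stood *Slc2a1* at 11.4, *Eno1* at 37.7 and *Hk1* at 61.9 scaled CPM per kilobase, which are forms found in most tissues. Glycogen synthase, *Gys1*, stood at 64.5. Not every such form was lowest: *Pgam1*, also found in most tissues, stood at 141, above *Hk2*, the muscle hexokinase, at 106.

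The order in RNA differed at the top. *Pgam2*, the muscle phosphoglycerate mutase, led with 3713 scaled CPM per kilobase of coding sequence (2935 to 4921), followed by *Aldoa* at 3246 and *Eno3* at 2663, and *Pgam2* was 11th in footprints. *Ogdh*, the E1 subunit of the oxoglutarate dehydrogenase complex, was 30th in RNA and 9th in footprints. Across genes, footprint and RNA levels per kilobase had a Spearman correlation of 0.77 over the 38 genes and 0.62 over 7981 genes. This is a description across genes of the same 12 libraries, and genes are not independent replicates.

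**Figure D1:**
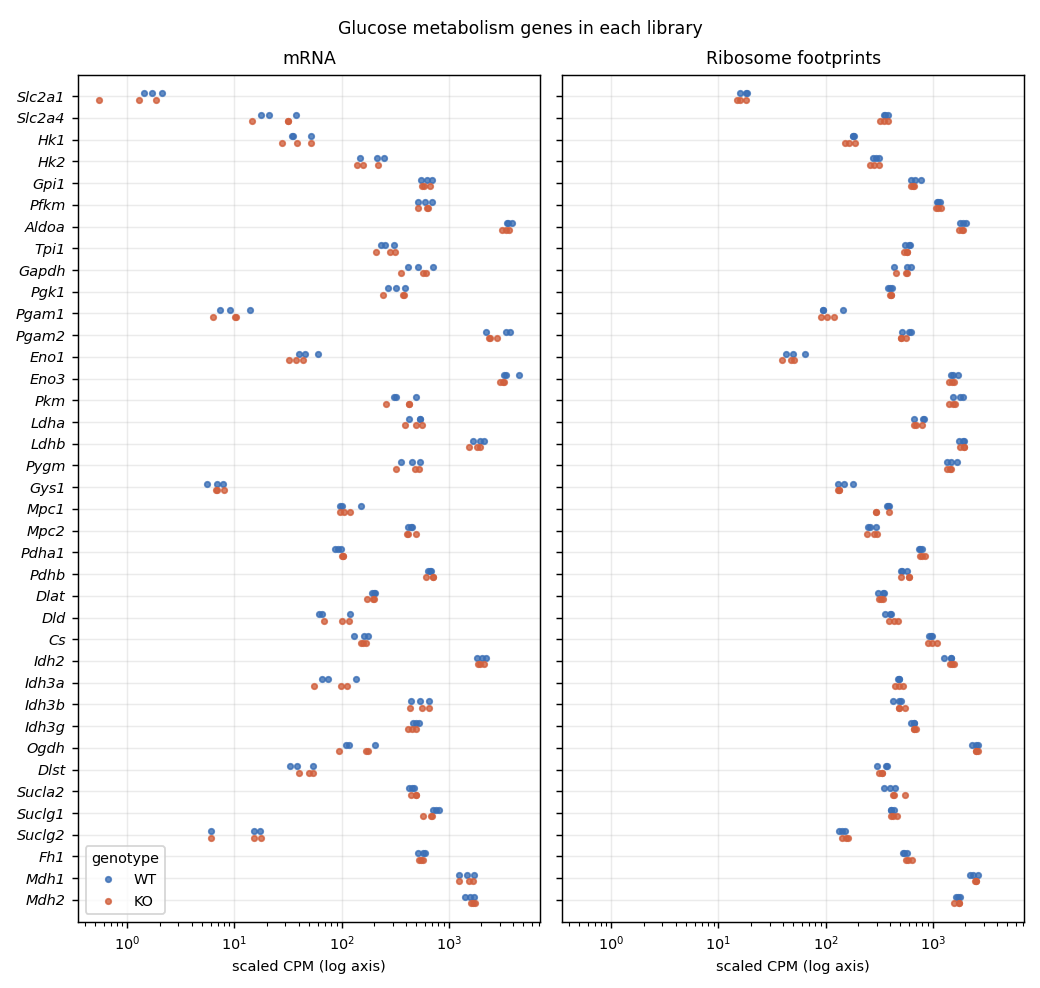
Level of each of the 38 genes in every library, in scaled CPM on a log axis, in mRNA (left) and in ribosome footprints (right); each point is 1 library, blue WT and orange KO. The genotypes overlap for every gene but *Pdha1* and *Suclg1* in mRNA, and *Gys1*, *Slc2a4*, *Pgam1*, *Suclg2* and *Ogdh* stand much higher in footprints than in mRNA.

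The first comparison asks whether loss of *Rpl3l* changed the mRNA of these genes. No gene was called: 0 of the 37 tested in RNA passed an adjusted p of 0.05 in edgeR's quasi-likelihood test, against 0.0119% of all 8379 genes tested, and 0 of 37 had an unadjusted p under 0.05, against 2.54% of all genes. DESeq2 also called 0 of 37. The median log2 fold change, KO against WT, was -0.02 over the 37 genes and -0.01 over all genes. The single genes ranged from -0.35 to 0.23, and their 95% intervals reached from -0.95 to 0.95. *Slc2a1* was too low for a test in RNA, with 8, 6 and 9 counts in WT and 7, 2 and 7 in KO, and the second name of *Aldoa*, Aldoa-214, had between 0 and 4 counts in every library of either assay.

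The 4 genes with the smallest RNA p-values were *Eno1*, *Pgam2*, *Suclg1* and *Eno3*, and all 4 were fitted lower in KO; the smallest of the unadjusted p-values was 0.109. *Eno1*, the enolase of most tissues, stood at 40.0, 60.4 and 45.5 scaled CPM in WT and 32.6, 43.8 and 37.7 in KO (log2 fold change -0.35, SE 0.20, edgeR adjusted p = 0.999). *Pgam2* stood at 3750, 3403 and 2236 in WT and 2409, 2801 and 2377 in KO (-0.30, SE 0.21). The third WT library of *Pgam2* lay below all 3 KO libraries, so the groups overlapped, as they did for *Eno1*. *Eno3* stood at 4578, 3461 and 3269 in WT and 3246, 3270 and 3025 in KO (-0.24, SE 0.18), with the third WT and second KO libraries all but level. *Suclg1*, the alpha subunit of succinyl-CoA ligase, stood at 770, 819 and 712 in WT and 580, 703 and 688 in KO (-0.22, SE 0.17). *Suclg1* was 1 of 2 genes whose RNA libraries did not overlap between genotypes. The other was *Pdha1*, the E1 alpha subunit of pyruvate dehydrogenase, which was higher in KO, with 98.4, 87.1 and 93.7 in WT and 104, 102 and 101 in KO (0.14, SE 0.15). These 2 of 37 are 5.41%, and 7.17% of all genes tested in RNA did not overlap.

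Summed by step, the 13 glycolytic enzymes gave 15226, 13055 and 12596 scaled CPM of RNA in WT and 12201, 11751 and 12370 in KO, so that every KO library lay below every WT library. *Aldoa*, *Eno3* and *Pgam2* made up most of that sum. As a share of nuclear-encoded counts, the same sum overlapped, at 1.60%, 1.55% and 1.72% in WT and 1.62%, 1.36% and 1.68% in KO. The 13 TCA cycle genes gave 8709, 7582 and 8814 scaled CPM in WT and 8496, 8023 and 8459 in KO, with overlap on both scales.

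The second comparison asks whether footprints changed. Again 0 of 38 genes were called in RPF in edgeR's test, against 0.00897% of all 11153 genes tested, and 0 of 38 had an unadjusted p under 0.05, against 5.96% of all genes. DESeq2 called 0 of 38. Footprints were the more precise measurement for these genes, with a median standard error of 0.12 on the log2 scale against 0.20 in RNA, and their 95% intervals all lay between -0.59 and 0.51. The median log2 fold change was -0.04, against 0.00 over all genes. The groups overlapped for all 38 genes, and 12.1% of all genes tested in RPF did not overlap.

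The smallest RPF p-values belonged to *Pkm*, *Mpc1*, *Sucla2* and *Gys1*, with 0.0705 the lowest before adjustment. *Pkm*, pyruvate kinase, the last step of glycolysis, had 1789, 1933 and 1554 scaled CPM in WT and 1613, 1437 and 1550 in KO (log2 fold change -0.22, SE 0.11, edgeR adjusted p = 0.835). *Mpc1*, a subunit of the mitochondrial pyruvate carrier, had 392, 377 and 382 in WT and 297, 394 and 296 in KO (-0.24, SE 0.13). The second KO library of *Mpc1* lay above all 3 WT libraries and the other KO libraries well below them. *Sucla2*, the ATP-forming beta subunit of succinyl-CoA ligase, had 444, 352 and 404 in WT and 429, 553 and 435 in KO (0.22, SE 0.13). *Gys1*, muscle glycogen synthase, had 150, 182 and 129 in WT and 132, 132 and 133 in KO (-0.24, SE 0.14), with 1 WT library below all KO libraries. Glycolytic footprints summed to 9375, 10371 and 9810 in WT and 9102, 9399 and 9472 in KO, and TCA cycle footprints to 12943, 12205 and 12300 in WT and 12642, 13538 and 12742 in KO. Both sums overlapped between genotypes on this scale. As a share of nuclear-encoded counts, glycolytic footprints overlapped too. TCA cycle footprints took 2.27%, 2.16% and 2.26% in WT and 2.28%, 2.35% and 2.28% in KO. On that scale every KO library lay above every WT library, and the sums were not tested.

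**Figure D2:**
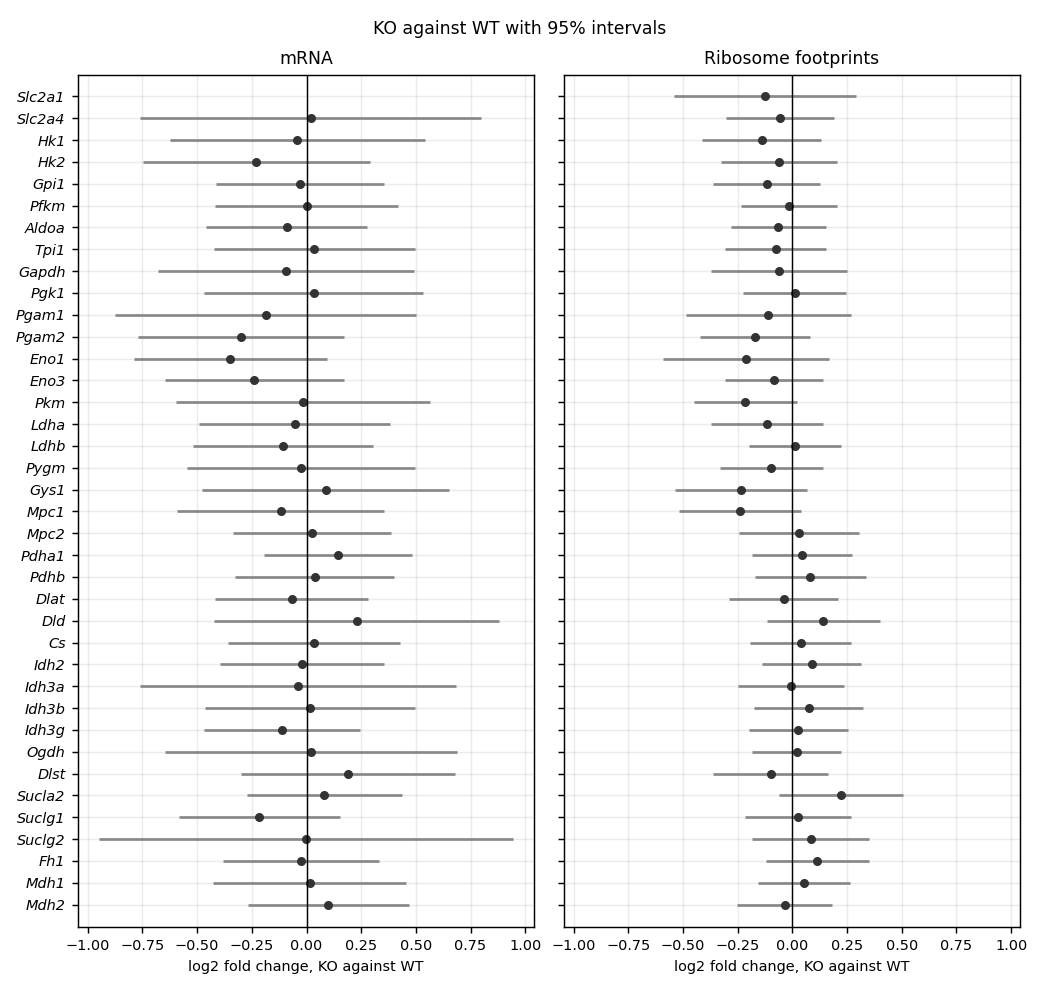
Log2 fold change, KO against WT, of each gene in mRNA (left) and in footprints (right), with 95% intervals from edgeR's fit; *Slc2a1* was not tested in mRNA. Every interval includes 0, and the footprint intervals are narrower than the mRNA intervals for most genes.

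The footprint level relative to RNA, or translational efficiency (TE), was compared between genotypes as an interaction in 1 fit of the 12 libraries. No gene was called (0 of 37 by edgeR and by DESeq2, against 0% of all 8044 genes tested by edgeR), and 0 of 37 had an unadjusted p under 0.05, against 3.73% of all genes. The log2 differences ranged from -0.30 to 0.27, with a median of 0.05 and 95% intervals from -0.88 to 1.05. That median was 0.12 without the second WT replicate, -0.07 without the third and -0.10 without the second KO replicate. The smallest p-values were those of *Suclg1* (0.27, SE 0.21), *Gys1* (-0.30, SE 0.27), *Dlst* (-0.27, SE 0.27) and *Fh1* (0.16, SE 0.20), and the unadjusted p of *Suclg1* was 0.221. *Dlst* encodes the E2 subunit of oxoglutarate dehydrogenase. Its RNA stood at 32.9, 38.2 and 54.1 scaled CPM in WT and 53.6, 40.0 and 49.2 in KO, and its footprints at 370, 373 and 305 in WT and 337, 337 and 316 in KO. *Fh1*, fumarase, had 597, 523 and 581 in WT RNA and 579, 555 and 530 in KO RNA, and 573, 537 and 524 in WT footprints and 564, 636 and 592 in KO footprints. The groups of both genes overlapped in both assays.

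RNA libraries of the same genotype differed in these genes. The third WT library was the highest of the 3 WT libraries for 23 of the 37 genes (62.2%, against 37.5% of all genes tested), and the second KO library was the lowest of the KO libraries for 25 of 37 (67.6%, against 38.8%). Leaving out a single library therefore moved the median RNA fold change of the genes across 0. It was -0.11 without the second WT library, with 29 of 37 genes fitted below 0, and 0.13 without the third, with 11 of 37 below 0. Without the third WT library 3 of 37 genes had an unadjusted p under 0.05 in edgeR's test. The share of all genes under 0.05 was not computed for that fit, so the count has no background and is not read as a result. In each of these fits, 0 of 37 genes had an adjusted p under 0.05. The summed RNA level of the 8 cardiomyocyte markers was 100577, 85636 and 70882 scaled CPM in WT and 69352, 84119 and 69251 in KO, lowest among WT in the third library and highest among KO in the second. The sum of 5 erythroid markers was 3538, 6349 and 7740 in WT and 9521, 7214 and 2283 in KO. That of 4 adipocyte markers, of which *Lep* was at 0, was 143, 395 and 132 in WT and 83.8, 276 and 126 in KO. The sum of 4 atrial markers was 4180, 4804 and 3014 in WT and 3708, 7565 and 6373 in KO, also lowest among WT in the third library and highest among KO in the second. That of 6 macrophage and leukocyte markers was 192, 190 and 205 in WT and 180, 156 and 184 in KO, with every KO library below every WT library. The other sums overlapped between genotypes: fibroblast markers at 511 to 609 in WT and 570 to 667 in KO, endothelial at 108 to 130 and 128 to 159, smooth muscle and pericyte at 126 to 166 and 124 to 183, and skeletal muscle at 5607 to 7088 and 5479 to 5778. The part of any of these in the results was not tested.

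*Suclg2*, the GTP-forming beta subunit of succinyl-CoA ligase, had the widest log2 range over the RNA libraries of the 37 genes tested, with 6.05, 15.3 and 17.5 scaled CPM in WT and 17.6, 6.03 and 15.2 in KO. *Slc2a4*, the insulin-responsive glucose transporter GLUT4, had 17.6, 21.2 and 37.95 in WT and 31.5, 14.5 and 31.8 in KO. *Idh3a*, the catalytic subunit of NAD-dependent isocitrate dehydrogenase, had 65.2, 74.9 and 135 in WT and 112, 55.9 and 99.9 in KO. In each of the 3 genes, values from WT and KO were interleaved. Footprints on them did not follow: *Suclg2* had 151, 133 and 143 in WT and 142, 154 and 161 in KO, and *Slc2a4* had 380, 348 and 356 in WT and 326, 380 and 350 in KO. Over the 6 libraries of an assay, the median log2 range of the genes was 0.57 in RNA and 0.29 in RPF, against 0.80 and 0.82 for all genes tested.

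The third comparison sets footprints against RNA within a genotype, on a scale where the typical gene is near 0. In WT, 27 of 37 genes were called by edgeR, 21 with more footprints than RNA and 6 with less; of all genes tested, 73.8% were called, 38.3% higher and 35.6% lower. In KO, 27 of 37 were called, again 21 higher and 6 lower, against 72.6%, 37.9% and 34.7% of all genes, and these were the same 21 and the same 6 genes. The count of calls was near the background, and more of them lay on the footprint side than in the background. Leaving out the filter on low counts moved the scale of all genes by -0.40 in WT and -0.35 in KO on the log2 scale. Of the 39 names then tested, 17 were called higher and 11 lower in WT, and 18 and 8 in KO. Of all 14601 names tested in that fit, 8790 were called in WT and 8605 in KO. Their split by direction was not computed. The median log2 ratio was 0.61 in WT and 0.72 in KO, against 0.05 and 0.08 over all genes.

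By step, footprints exceeded RNA in both genotypes for *Slc2a4*, for 6 of 13 glycolytic genes (*Hk1*, *Hk2*, *Pfkm*, *Tpi1*, *Pgam1* and *Pkm*), for *Ldha*, for both glycogen genes (*Gys1* and the phosphorylase *Pygm*), for 4 of 6 genes of pyruvate entry (*Mpc1*, *Pdha1*, *Dlat* and *Dld*) and for 7 of 13 TCA cycle genes (*Cs*, *Idh3a*, *Idh3g*, *Ogdh*, *Dlst*, *Suclg2* and *Mdh1*). Footprints fell short of RNA for *Aldoa*, *Pgam2* and *Eno3* in glycolysis, for *Mpc2* in pyruvate entry and for *Idh2* and *Suclg1* in the TCA cycle. The 10 genes not called in either genotype were *Gpi1*, *Gapdh*, *Pgk1*, *Eno1*, *Ldhb*, *Pdhb*, *Idh3b*, *Sucla2*, *Fh1* and *Mdh2*. Several of these calls depended on the processing or on a single library. Without the filter on low counts 5 of the 27 calls were lost in WT (*Hk2*, *Ldha*, *Dlat*, *Idh3g* and *Mdh1*) and 4 in KO (the same genes without *Dlat*), all of them higher in footprints. Genes then called lower were *Ldhb*, *Pdhb*, *Idh3b*, *Sucla2* and *Fh1* in WT and *Pdhb* and *Idh3b* in KO. Of the genes not called, *Gpi1*, *Pgk1*, *Eno1* and *Mdh2* turned from positive to negative in both genotypes, and *Gapdh*, *Ldhb* and *Fh1* in KO. Under median-of-ratios scaling and in DESeq2, *Gpi1*, *Gapdh* and *Mdh2* turned negative in KO. Under median-of-ratios scaling *Hk2* (0.45, edgeR adjusted p = 0.0646) and *Idh3g* (0.33, adjusted p = 0.0535) lost their call in WT, and *Pdhb* was called lower in both genotypes. Leaving out 1 library of either genotype lost the WT call of *Idh3g* (without any WT replicate, or the third KO replicate), *Hk2* (without WT replicate 2 or 3 or KO replicate 1) or *Ldha* (without the second WT replicate). In KO it lost that of *Idh2* (without any KO replicate), *Hk2* (without the first or the third) or *Ldha* (without the second). *Pdhb* was called lower in WT without the second KO replicate.

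*Gys1* (chr7:45434844-45456619, GRCm38, plus strand) had the highest ratio. It had 5.52, 6.92 and 7.89 scaled CPM in WT RNA, from 21, 29 and 42 counts, against 150, 182 and 129 in WT footprints, which is 22.4-fold (log2 4.49, SE 0.20, edgeR adjusted p = 4.91e-11). *Ogdh* (chr11:6291633-6356642, plus strand) had 110, 118 and 206 in WT RNA and 2663, 2534 and 2348 in WT footprints, 17.3-fold (log2 4.12, SE 0.27). *Slc2a4* (chr11:69942543-69948149, minus strand) followed at 14.0-fold, *Suclg2* (chr6:95473009-95718800, minus strand) at 10.8-fold, and *Pgam1* (chr19:41911923-41918660, plus strand), the phosphoglycerate mutase of most tissues, at 10.8-fold from 7.37, 9.07 and 14.1 in RNA and 95.4, 146 and 93.7 in footprints. Each of these 5 genes had every footprint library above every RNA library, in KO as in WT.

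At the low end, *Pgam2* (chr11:5801640-5803733, minus strand) had 5.37-fold less footprint signal than RNA in WT, with 522, 600 and 626 scaled CPM in footprints (log2 -2.42, SE 0.20, edgeR adjusted p = 1.24e-08). *Eno3* (chr11:70657204-70662513, plus strand) had 1475, 1732 and 1539 in WT footprints and a log2 ratio of -1.25 (SE 0.17). *Aldoa* (chr7:126795234-126799254, minus strand) had 3884, 3543 and 3594 in WT RNA and 1783, 1933 and 2056 in WT footprints (-0.93, SE 0.15). *Suclg1* followed at -0.87 (SE 0.15), from 411, 408 and 439 in WT footprints. *Mpc2*, the partner of *Mpc1* in the pyruvate carrier, stood at -0.70 (SE 0.15), with 442, 451 and 417 in RNA and 295, 261 and 250 in footprints. The 3 muscle enzymes that led in RNA per kilobase were thus the 3 with the lowest ratios. Both rankings use the same RNA values, which are the denominator of the ratio, so they are not independent.

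The ratio ran with the annotated length of the 3′ untranslated region (UTR), which was not used to choose the genes. Over the 37 genes, the Spearman correlation of the ratio with 3′ UTR length was 0.70 in WT and 0.71 in KO, against 0.38 and 0.39 over 7981 genes. It was 0.38 and 0.40 with coding length and -0.19 and -0.21 with 5′ UTR length. *Pgam2*, with the lowest ratio, has a 3′ UTR of 33 bases, *Eno3* of 81 and *Aldoa* of 185, while *Slc2a4* has 826, *Ogdh* 968, *Gys1* 1252 and *Suclg2* 2040. Of the 11 genes with a 3′ UTR under 300 bases, 2 were called higher in footprints and 6 lower in WT, against 10.1% and 66.6% of all genes of that length. From 300 to 800 bases, 6 of 11 were called higher and 0 lower, against 35.1% and 32.3%. From 800 bases, 13 of 15 were called higher and 0 lower, against 53.0% and 23.1%, and the other 2 were *Fh1* and *Gpi1*. The counts in KO were the same in each class. Annotated transcript ends may differ from those used in the heart, the region of the transcript over which reads were counted is not given in the sources used here, and the part of either was not tested.

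**Figure D3:**
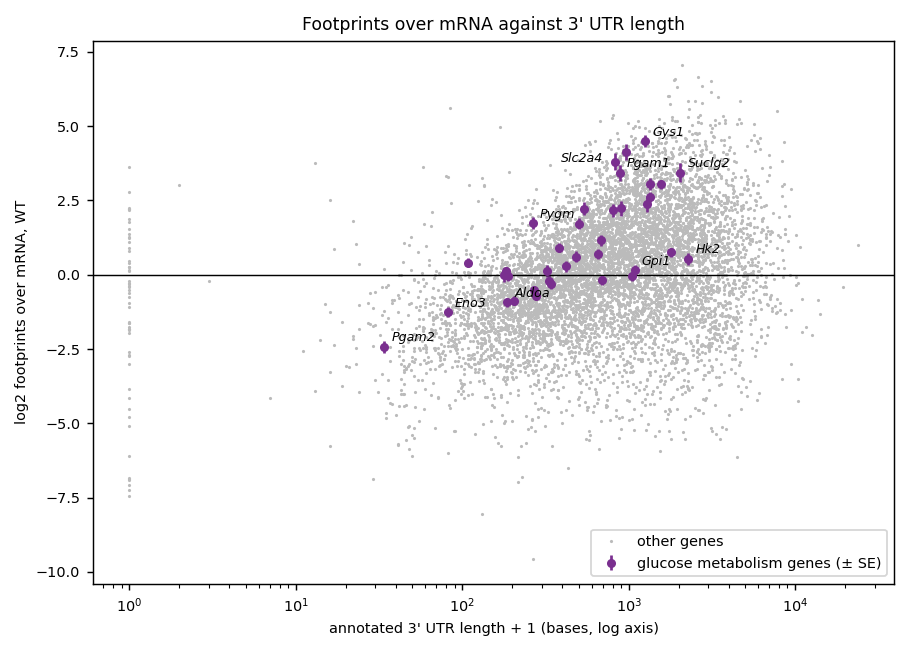
Log2 ratio of footprints to mRNA in WT against annotated 3′ UTR length (plus 1 base, log axis) for the tested genes of glucose metabolism (purple, with SE) and for all other genes tested (grey, 1 point per gene). *Pgam2*, *Eno3* and *Aldoa* lie at the short, low end and *Gys1*, *Slc2a4*, *Pgam1* and *Suclg2* at the long, high end.

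The differences between RNA libraries ran with the same ratio. The RNA change from the second to the third KO library, a pair picked after its values were seen, had a Spearman correlation of 0.57 with the WT ratio over the 37 genes and of 0.38 over 7981 genes. The change from the first to the third WT library had one of 0.74 with the KO ratio, against 0.41. This pair was not among the planned comparisons either, and other pairs of libraries were not computed. In each case the libraries on the 2 axes were different, and what sets the RNA libraries apart was not tested.

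Isoform pairs were compared as the share of 1 form in the summed level per kilobase of coding sequence. The muscle or heart form was the main one in all 6 pairs in both assays, and no share differed between genotypes beyond the spread between replicates. Over the 6 pairs and 2 assays, the 12 exact two-sided permutation p-values of KO against WT were 0.2 or more (0.857 or more after adjustment, with 0.1 the smallest p that 3 against 3 libraries allow), and the groups overlapped in all 12. *Hk2*, the insulin-responsive hexokinase, took 62.6%, 63.5% and 61.2% of hexokinase footprints in WT and 66.4%, 64.0% and 60.7% in KO, with *Hk1* the rest. *Ldhb* took 70.1%, 68.7% and 73.7% of lactate dehydrogenase footprints in WT and 71.3%, 72.8% and 73.7% in KO, with *Ldha*, the muscle form, the rest. *Slc2a4* took 95.2%, 95.5% and 94.99% of the footprints of the pair with *Slc2a1* in WT and 95.5%, 95.3% and 95.5% in KO.

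Between libraries, the single genes behind these shares had a narrower log2 range in footprints than in RNA, except *Sucla2*. *Eno1* (0.72), *Pgam1* (0.67) and *Sucla2* (0.65) had the widest footprint ranges of the 38 genes, whose median was 0.29. *Hk2* had 295, 314 and 278 scaled CPM of footprints in WT and 318, 260 and 281 in KO, and *Hk1* had 182, 186 and 182 in WT and 166, 151 and 187 in KO. In RNA, *Hk2* had 249, 216 and 149 in WT and 160, 221 and 140 in KO, while *Hk1* had 35.2, 34.6 and 52.4 in WT and 38.2, 27.7 and 52.3 in KO. In each genotype the third library had the least *Hk2* RNA and the most *Hk1* RNA, and the RNA share of *Hk2* there was 74.5% in WT and 73.4% in KO. *Ldhb* had 1949, 1777 and 1912 in WT footprints and 1976, 1812 and 1966 in KO, and *Ldha* 828, 806 and 677 in WT and 789, 674 and 697 in KO. *Eno1* footprints stood at 42.6, 64.96 and 49.97 in WT and 39.2, 50.8 and 47.6 in KO. *Slc2a1* had 106 to 211 footprint counts in a library.

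Between assays the shares differed. In 5 of 6 pairs the main form took less of the footprints than of the RNA, with no overlap between the 6 libraries of each assay. The exact two-sided permutation p was 0.0021645 for each (the smallest that 6 against 6 allow) and 0.0025974 after adjustment over the 6 pairs. Of all genes tested, 73.8% in WT and 72.6% in KO were called between the assays, and the share over other gene pairs was not computed. Separation between the assays is therefore not read as particular to isoforms. *Sucla2* took 97.1% ± 1.1 of the RNA of the pair with *Suclg2* and 73.3% ± 2.1 of the footprints (SD, n = 6). *Hk2* took 82.1% ± 6.9 of the RNA and 63.1% ± 2.1 of the footprints, and *Pgam2* 99.6% ± 0.16 and 83.8% ± 2.2. Footprints minus RNA came to -7.26 percentage points for *Ldhb* (RNA 79.0%, footprints 71.7%) and -1.81 for *Eno3* (98.8% and 96.9%). *Slc2a4* did not differ beyond the replicate error, at 94.1% ± 2.7 and 95.3% ± 0.21 (exact permutation p = 0.323), and its RNA share rests on 2 to 9 counts of *Slc2a1* in a library. Every main form except *Hk2* has a shorter annotated 3′ UTR than its partner: 2285 bases for *Hk2* and 805 for *Hk1*, against 694 for *Sucla2* and 2040 for *Suclg2*.

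**Figure D4:**
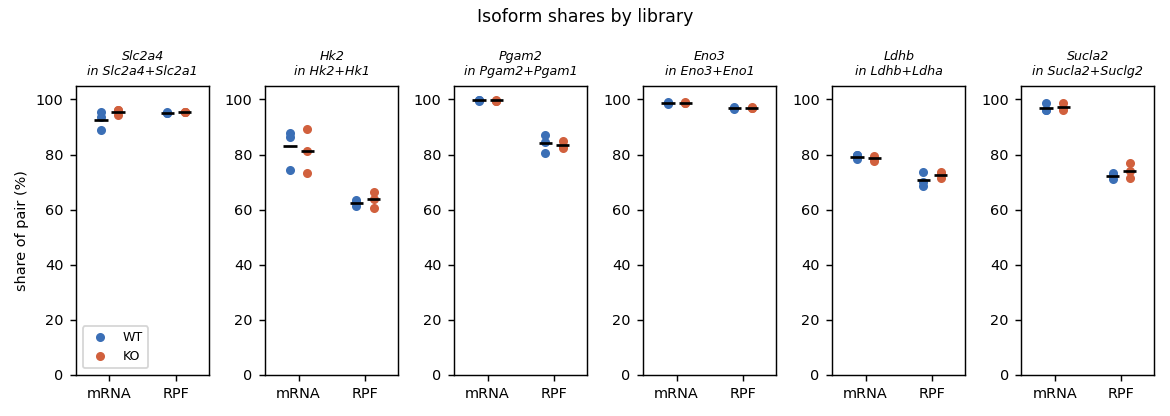
Share of the named form in the summed level per kilobase of coding sequence of its pair, in percent, in mRNA and in footprints (RPF), for 6 isoform pairs; points are libraries (blue WT, orange KO) and black bars the mean of 3. The genotypes overlap in every panel, and mRNA and footprints separate in all panels but that of *Slc2a4*.

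Several of these genes encode different subunits of a single enzyme. Ratios between subunit levels per kilobase were formed for 7 subunit combinations, chosen after counts and gene ratios had been seen. They are given as a description, and no test result between the assays is reported. The 6 footprint and 6 RNA libraries did not overlap for any of them. How often other pairs of genes separate was not computed, and 73.8% of all genes in WT and 72.6% in KO were called between the assays. The separation is therefore not read as a trait of subunits. In the pyruvate dehydrogenase E1 enzyme, whose alpha and beta subunits assemble in equal number, *Pdha1* over *Pdhb* was 0.134 in RNA (0.126 to 0.153) and 1.32 in footprints (1.17 to 1.47). In the pyruvate carrier, *Mpc1* over *Mpc2* was 0.298 in RNA (0.249 to 0.424) and 1.53 in footprints (1.14 to 1.78). In succinyl-CoA ligase, which pairs 1 alpha with 1 beta subunit, *Suclg1* over the sum of *Sucla2* and *Suclg2* was 2.00 in RNA (1.52 to 2.47) and 0.971 in footprints (0.788 to 1.10). These 3 combinations were closer to 1 in footprints than in RNA.

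Isocitrate dehydrogenase 3 holds more alpha than beta or gamma subunits. *Idh3a* over *Idh3b* was 0.170 in RNA (0.126 to 0.216) and 1.04 in footprints (0.968 or more in every library), and *Idh3g* over *Idh3b* was 0.876 in RNA (0.631 to 1.11) and 1.34 in footprints (1.21 to 1.52). The mean of *Idh3a* over *Idh3b* thus lay closer to 1 in footprints, and that of *Idh3g* over *Idh3b* further from it. For the remaining combinations the E1 and E2 components have no such simple ratio. *Dlat*, the E2 of pyruvate dehydrogenase, over *Pdhb* was 0.163 in RNA and 0.343 in footprints, and *Ogdh* over *Dlst*, the E1 and E2 of oxoglutarate dehydrogenase, was 1.43 in RNA and 3.35 in footprints, further from 1. No ratio differed between genotypes in either assay beyond the replicate error (exact permutation p of 0.2 to 1, 3 against 3). The ratio between the assays does not depend on gene length for combinations of 2 genes, but the distance from 1 does: per kilobase of whole transcript, *Pdha1* over *Pdhb* was 0.0775 in RNA and 0.763 in footprints, and *Idh3a* over *Idh3b* 0.109 and 0.665.

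**Figure D5:**
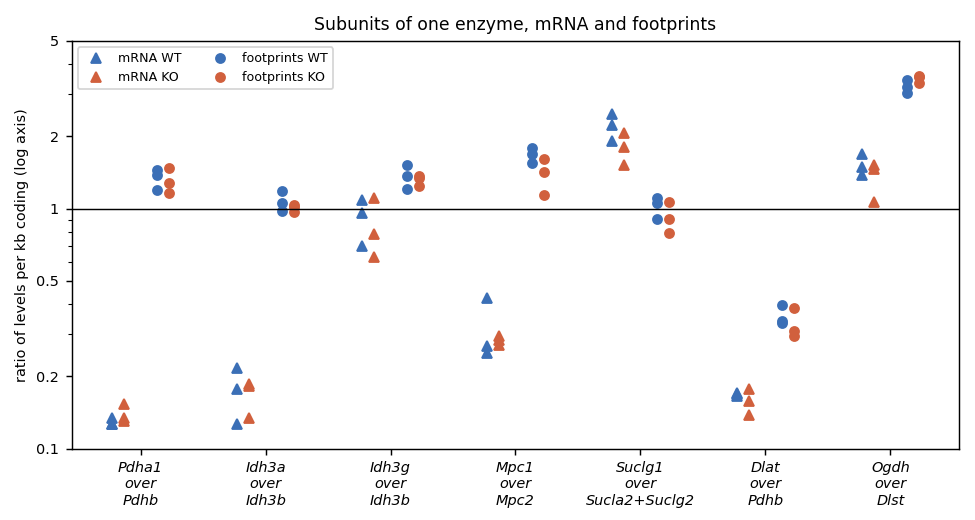
Ratio of subunit levels per kilobase of coding sequence (log axis) for 7 subunit combinations, in mRNA (triangles) and in footprints (circles), 1 point per library, blue WT and orange KO; the line marks 1. Footprint and mRNA libraries separate for every combination, while the genotypes overlap throughout.

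The wider pathway was read from 81 other genes listed by function: further isoforms, kinases and phosphatases of the pyruvate dehydrogenase complex, lactate transporters, glycogen enzymes, the remaining TCA cycle genes, shuttles and regulators. edgeR called none of them between genotypes, of 66 tested in RNA, 79 in RPF and 66 in TE. An unadjusted p under 0.05 was seen for 0 of 66 in RNA and in TE and for 2 of 79 in RPF, where 5.96% of all genes had one, and the share of the 79 was below that. These were *Slc2a8*, an intracellular glucose transporter, at -0.76 (SE 0.27), and *Pdp1*, the phosphatase that activates pyruvate dehydrogenase, at 0.40 (SE 0.17). By size of p, *Ogdhl* came next in RPF (-0.27, SE 0.13). In RNA the smallest p-values were those of *Phka1* (0.47, SE 0.28), *Pfkfb2* (0.54, SE 0.37) and *Pfkfb1* (-0.60, SE 0.42), and in TE those of *Pdp1* (0.64, SE 0.32), *Ppp1r3a* (0.63, SE 0.36) and *Pdpr* (0.56, SE 0.36).

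Most of these genes, too, had more footprints than RNA. In WT 49 of 66 were called higher and 6 lower, against 38.3% and 35.6% of all genes, and in KO 51 and 5, against 37.9% and 34.7%. The median log2 ratios were 1.87 and 1.85, against 0.05 and 0.08 over all genes. The highest in WT, named after their values were seen, were *Pdk4*, a kinase that inactivates pyruvate dehydrogenase, at 7.04 (SE 0.43), *Slc16a1*, the lactate and pyruvate transporter MCT1, at 6.36 (SE 0.24), and *Ppp1r3a*, a glycogen-targeting phosphatase subunit, at 5.35 (SE 0.23). The lowest was *Pck2*, the mitochondrial phosphoenolpyruvate carboxykinase, at -1.41 (SE 0.27).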

How the data were processed

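The authors deposited raw counts per transcript name, 1 table per library. Cutadapt 1.18 and Bowtie2 2.4.2 are named in the submitters' processing notes; the build, annotation, counting program, region counted, strand use and treatment of reads with several matches are not given in the sources used here. Of 21669 names, 21428 (98.89%) matched GENCODE M21 (GRCm38), which gave coordinates, lengths and sequences; all 39 names described here matched.

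The 38 genes, the 81 other pathway genes and the tests were chosen with earlier results of these data known. Groups came from the labels. Counts were tested with edgeR 4.0.16 (R 4.3.3; filterByExpr with a minimum count of 10, TMM, glmQLFit and glmQLFTest), over all genes that passed the filter, with Benjamini-Hochberg adjustment and a threshold of 0.05. RNA and RPF used the 6 libraries of the assay, TE and RPF against RNA all 12. The standard error of a log2 fold change was taken as its size over the square root of F. Shares and ratios used exact permutation tests, and Spearman correlations came from scipy 1.17.1. The calculation was tested on simulated data. Values per library were given for both genes of each isoform pair or their share, the 4 smallest p-values in RNA, RPF and TE, and the 5 highest and 5 lowest ratios in WT; of the other pathway genes, the 3 smallest p-values in each comparison were named. The alternatives were DESeq2 1.42.0, median-of-ratios scaling, no filter, removal of mitochondrial transcripts, a replicate block and leaving out each replicate. Subunit ratios, 3′ UTR classes and whole-transcript lengths were added after seeing the data. Depth limits precision mainly in RNA, where 49.8% or more of the counts were mitochondrial; PCR duplicates are not separable in counts.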

Additional observations from a re-analysis of the deposited data

How the results depend on the processing

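Between genotypes, 0 of the genes were called in RNA, RPF or TE under every alternative run, with edgeR or DESeq2 and without each replicate in turn. The number called in RPF against RNA was 24 to 28 in WT and 25 to 27 in KO when 1 replicate was left out. The 24 in WT came without the second WT replicate, where 5667 of all 8422 genes tested were called. The 28 came without the second KO replicate, with 6183 of 8488. In KO, 25 were called without the third KO replicate, with 5373 of 8317. Without the filter on low counts, the median RPF against RNA ratio of the genes moved from 0.61 to 0.30 in WT and from 0.72 to 0.37 in KO. It was then taken over 39 names. The median over all genes tested went from 0.05 to 0.13 in WT and from 0.08 to 0.15 in KO. Of the 37 genes, 5 calls were lost and 5 gained in WT and 4 lost and 2 gained in KO, and the ratio of 4 genes in WT and 7 in KO changed sign. Among the genes of the isoform pairs, *Eno1* reversed to -0.29 in WT and -0.078 in KO and *Ldhb* to -0.26 in KO, and *Ldhb* (-0.45) and *Sucla2* (-0.59) were called lower in WT. Leaving out a replicate moved *Ldhb* over -0.14 to 0.0088 in WT and -0.0096 to 0.11 in KO, and *Sucla2* over -0.24 to 0.037 in KO; none of these was called in the fit reported. The cause was not tested.

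KO minus WT differences of isoform shares, none beyond the replicate error, changed sign when a replicate was left out: *Hk2* -5.99 to 2.17 percentage points in RNA and -0.091 to 2.74 in RPF, *Pgam2* -0.13 to 0.085 and -2.36 to 0.88, *Eno3* -0.064 to 0.36 in RNA and *Sucla2* -0.48 to 0.96 in RNA.

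The labels do not say what the replicate numbers share. Deviations from the group means correlated at -0.195, 0.336 and 0.394 between same-numbered WT and KO RNA libraries, at 0.0406, 0.0104 and -0.00421 between WT and KO RPF libraries, at 0.0803, 0.153 and 0.0833 between same-numbered RNA and RPF libraries in WT, and at 0.108, 0.109 and 0.125 in KO. Not every pair was over 0.1, so the pairing was not used in the fits reported, though all 6 RNA and RPF values were positive. With the replicate block, 0 of the genes were called between genotypes and 27 in RPF against RNA in each genotype, with no call or sign changed in the latter. Of all 8044 genes tested, the fit with the block called 5943 in WT and 5814 in KO.

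Depth limited *Slc2a1*, *Gys1*, *Pgam1* and *Suclg2* in RNA, where libraries held 2 to 93 counts of each.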
